A study of Mus musculus with 4 samples.

Results

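Among the blood cells sorted for human CD45 from humanised mice, 350 of 22599 cell barcodes held mouse leukocyte or platelet transcripts that were neither red cell-like nor rich in neutrophil alarmins. These barcodes were selected on 4 limits. Over 50% of their unique molecular identifiers (UMIs, each counting 1 captured transcript) lay on mouse genes, and at least 200 mouse genes were detected. The haemoglobin genes Hbb-bs, Hbb-bt, Hba-a1 and Hba-a2 made up under 20% of the mouse UMIs, and S100a8 with S100a9 under 2%. The 3 blood libraries contributed 14 of 8124 naïve, 230 of 6962 sham and 106 of 7513 SCI barcodes, out of 22830 barcodes in the whole series with the SCI spinal cord.

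The hosts were huNSG-SGM3 mice, which combine NOD.Cg-Prkdcscid with the null allele IL2rgtm1Wjl and the transgene Tg(CMV-IL3,CSF2,KITLG)1Eav/MloySzJ, from which a CMV promoter drives these human cytokines. They therefore have no functional T or B cells of their own, and after irradiation they received human cord blood CD34+ stem cells. All animals were labelled as 15 weeks of age. Naïve hosts (male) had no surgery, sham hosts (male) had a laminectomy at T9, and SCI hosts (pooled male and female) had a T9 contusion, with both operated groups taken 7 days post-surgery. Blood was lysed of red cells and sorted for live human CD45+ cells, so that every mouse barcode here had come through a gate set on a human protein. Each library pooled cells from several animals and there was 1 library per condition. No spread between animals could therefore be measured, no test between conditions was made, and all intervals given are exact 95% intervals that cover counting error only.

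Monocytes arise in the bone marrow. In mice, classical monocytes carry the surface protein Ly6C and the chemokine receptor CCR2, leave the blood for inflamed tissue and can become macrophages or dendritic cells there. Non-classical monocytes carry CX3CR1 and little Ly6C, depend on the transcription factor NR4A1 and patrol the vessel wall. Platelets are anucleate fragments of megakaryocytes that carry granules of chemokines such as PF4, and they often stick to leukocytes. Neutrophils are short-lived granulocytes that recruit to wounds through CXCR2.

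The libraries differed in how many mouse barcodes they held. Mouse barcodes with at least 200 genes numbered 136 (naïve), 1657 (sham) and 889 (SCI), of which the 350 described here made up 10.3%, 13.9% and 11.9%. The rest were haemoglobin-rich (78, 82 and 51) or rich in S100a8 and S100a9 (44, 1345 and 732). Just inside and outside the S100 limit lay barcodes at 1.45% and 2.24% (naïve), 1.96% and 2.00% (sham), and 1.93% and 2.01% (SCI). Across the haemoglobin limit the gap was wide, from 0.541% to 72% in naïve, 8.76% to 49.5% in sham and 1.07% to 56.8% in SCI. At the gene limit the nearest barcodes held 236 and 189 genes in naïve, 212 and 188 in sham, and 210 and 183 in SCI. The median was 2428, 3811.5 and 3393.5 mouse UMIs per barcode, and the 3 libraries summed to 32565, 1394148 and 494197 mouse UMIs, so that the naïve values rest on the fewest molecules by far. No barcode sequence was shared between members of different libraries, although 16 barcodes were common to naïve and sham, 16 to naïve and SCI and 5 to sham and SCI over all cells.

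Under 90% mouse UMIs were found in 1 naïve, 10 sham and 5 SCI members. The labelled host sex was checked on genes that the selection did not use. The female transcript Xist was at 0 UMIs in naïve and sham members. In SCI, 21 of 106 members had an Xist UMI and no Y-linked UMI, 32 had a Y-linked UMI only, 1 had both and 52 had neither, so that both host sexes were present as labelled.

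Clustering placed the 350 barcodes in 4 named classes, with 5 left over. Non-classical monocyte-like barcodes were the most numerous at 150, followed by 83 neutrophil-like, 82 classical monocyte-like and 30 platelet-like barcodes. The label of other leukocytes held for the monocyte-like and platelet-like barcodes. It did not hold for the neutrophil-like class, which lay under the S100 limit but carried Cxcr2 and Csf3r. Since clusters are built from the same counts, the marker levels below describe the classes and are not a test of them. Unless stated otherwise, levels are CPM (counts scaled to a total of 1000000) of the mouse UMIs left after ribosomal, mitochondrial, haemoglobin, S100a8, S100a9 and sex-linked genes were set aside.

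Lyz2, Csf1r and Pf4 were the markers given for these cells. Lyz2 encodes lysozyme of myeloid cells (ENSMUSG00000069516, GRCm38 chr10:117277331-117282321, minus strand). It was detected in 13 of 14 naïve, 196 of 230 sham and 86 of 106 SCI members. Csf1r, the receptor for the monocyte growth factor CSF1, was found in 7, 166 and 64 of them. Pf4, the platelet chemokine (ENSMUSG00000029373, GRCm38 chr5:90772435-90773383, plus strand), was found in 9, 49 and 36. By class, Lyz2 stood at 36831 CPM in classical and 16764 CPM in non-classical monocyte-like barcodes, at 6529 CPM in platelet-like and at 1517 CPM in neutrophil-like ones. Csf1r was highest in non-classical (953 CPM) and classical (509 CPM) monocyte-like barcodes and was at 0 UMIs in the 30 platelet-like ones. Pf4 ran the other way, at 40931 CPM in platelet-like, 1084 CPM in neutrophil-like, 135 CPM in classical and 39.1 CPM in non-classical monocyte-like barcodes. Mouse transcripts also reached human barcodes, with a Lyz2 UMI in 2.35%, 7.18% and 4.15% and a Pf4 UMI in 6.81%, 4.91% and 5.73% of the human barcodes of naïve, sham and SCI blood, at a median of 8, 14 and 10 mouse UMIs per barcode. A single Lyz2 or Pf4 UMI in a member is therefore within what human barcodes held. Whether those UMIs were free mouse RNA was not tested.

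**Figure D1:**
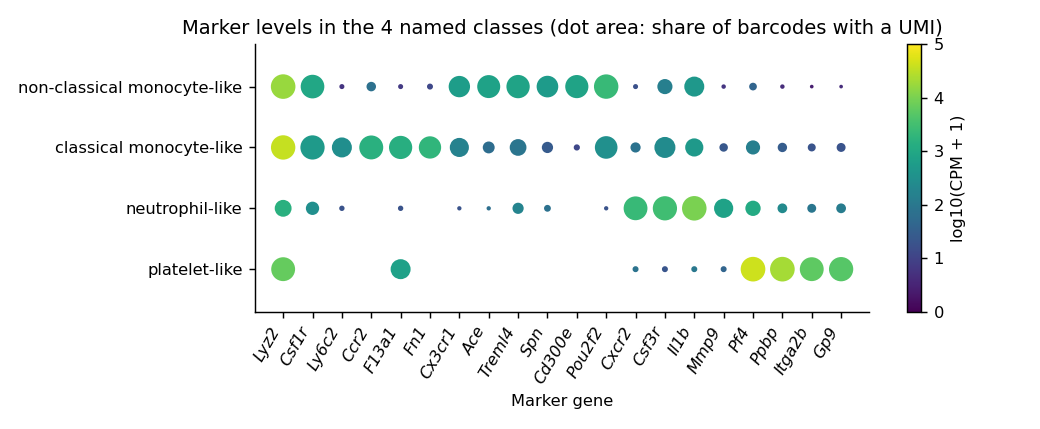
Levels of 20 marker genes in the 4 named classes over all 3 blood libraries, with the colour giving log10(CPM + 1) and the dot area the share of barcodes with a UMI. Lyz2 reaches every class, Ace, Treml4 and Cd300e concentrate in the non-classical, Ccr2, F13a1 and Fn1 in the classical monocyte-like class, Cxcr2 and Csf3r in the neutrophil-like and Ppbp, Itga2b and Gp9 in the platelet-like class.

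Non-classical monocyte-like barcodes (150, median 3860.5 mouse UMIs) carried the patrolling monocyte programme. Pou2f2, a transcription factor of this subset, was detected in 147 of them at 2310 CPM. Treml4 was found in 133 (792 CPM), Cd300e in 131 (779 CPM), Ace, the angiotensin-converting enzyme, in 129 (761 CPM), Nr4a1 in 134 (733 CPM) and the fractalkine receptor Cx3cr1 in 110 (591 CPM). Ly6C-side genes were low, with Ccr2 in 17 of the 150 at 68.4 CPM. They formed 2 clusters, 1 of 118 barcodes with a median of 3464.5 UMIs, led among others by Cd300e and Fabp4, and 1 of 32 with a median of 8566.5 UMIs, led among others by Nup210 and Spn. The larger held 6 naïve, 75 sham and 37 SCI barcodes and the smaller 1, 25 and 6.

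Classical monocyte-like barcodes (82) were the deepest, at a median of 10978 mouse UMIs. They carried Ms4a6c (1998 CPM), Fn1, which encodes fibronectin (1838 CPM), Ccr2 (1508 CPM), F13a1, a coagulation factor subunit (1368 CPM), the chitinase-like gene Chil3 (2690 CPM) and Vcan, which encodes versican (958 CPM). Ly6c2 (ENSMUSG00000022584, GRCm38 chr15:75108158-75111970, minus strand) was detected in 52 of the 82 at 282 CPM. Ly6c1 and Ly6c2 are close paralogs, so that reads could be split between them and neither level is certain by itself.

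Neutrophil-like barcodes (83) were shallow, at a median of 1366 mouse UMIs and 693 genes, with 0.316% mitochondrial UMIs against 3.34% in the non-classical and 4.24% in the classical class. Il1b was detected in 82 of them at 10007 CPM, Csf3r, the receptor for G-CSF, in 80 at 2881 CPM, Cxcr2 in 77 at 2303 CPM and Mmp9 in 48 at 759 CPM. Genes of granule formation were nearly missing, with Camp and Ltf at 0 UMIs and Ngp at 3, and Ly6g had 1 UMI. Their S100a8 and S100a9 share had a median of 0.878% and reached 1.95%. In sham blood, Lcn2, a granule protein gene, was found in 12 of 56 neutrophil-like members and in 67.1% of the 1345 barcodes above the S100 limit, and Mmp8 in 6 of 56 against 39.2%. Camp, Ltf and Ngp were also rare in those 1345 barcodes, in 2.01%, 1.04% and 7.81% of them, while Ly6g was found in 23.3%. The depths differed, with medians of 1446.5 and 1823 mouse UMIs, and the S100 limit separated the 2 sets, so these values are a description.

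**Figure D2:**
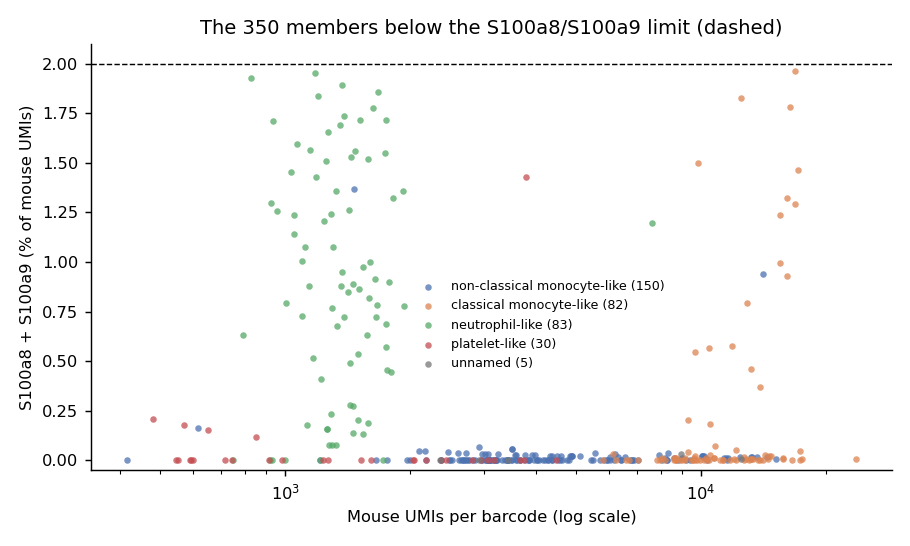
Share of S100a8 and S100a9 in the mouse UMIs of each barcode against its mouse UMIs on a log scale, 1 point per barcode, coloured by class, with the selection limit of 2% dashed. The 83 neutrophil-like barcodes spread from 0 to 1.95% at a median of 1366 UMIs, while most monocyte-like barcodes lie near 0 and the classical class reaches 1.96%.

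Platelet-like barcodes (30) held the platelet chemokine genes Pf4 and Ppbp (chr5:90768518-90770063 on GRCm38) in all 30, at 40931 and 21264 CPM. Itga2b, the alpha chain of the platelet fibrinogen receptor, was found in 28 (5740 CPM) and Gp9, part of the von Willebrand factor receptor, in 29 (4891 CPM). Clec1b was detected in all 30 (6771 CPM) and the serotonin transporter gene Slc6a4 in 22 (2244 CPM). Lyz2 was found in 28 of the 30. Csf1r, Ccr2, Cx3cr1 and the 12 macrophage markers were all at 0 UMIs there, as were the B and T cell markers. Erythroid marker genes summed to 3740 CPM of all mouse UMIs in this class, against 432 to 773 CPM in the 3 others. This sum rested on few genes. Of the 13 erythroid markers, 3 reached 10% of these barcodes, and 2 were also at least 2-fold above other members. Mkrn1 alone had 87 UMIs in SCI and 54 in sham platelet-like barcodes, and Bnip3l had 12 and 11.

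At the main clustering, no other class took a name. In the classical monocyte-like cluster, 3 of 10 conventional dendritic cell markers also met the naming limits, against 8 of 10 classical monocyte markers. The dendritic cell list summed to 1120 UMIs in 143 members. T cell markers summed to 22 UMIs over the 350 members, with Cd3e at 0, and the 6 stromal markers were at 0 in every library. B cell markers summed to 213 UMIs, 188 of them Ighm, in 122 members, and NK cell markers to 29 UMIs in 7 members. Macrophage genes were present without a macrophage cluster. The complement gene C1qa had 100 UMIs in 2 members, 98 of them in 1 SCI barcode, whereas in SCI cord 98.9% of the 89 barcodes that met the same limits had a C1qa UMI, at 14082 CPM. Apoe stood at 42772 CPM in those cord barcodes. The cord barcodes were deeper, at a median of 28335 mouse UMIs.

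The 5 leftover barcodes, 3 sham and 2 SCI, were named individually by no rule, and their leading markers, chosen after their values were seen, are given as counts. A sham barcode had 50 UMIs of Hdc, the histidine decarboxylase gene, 6 of Mcpt8, 5 of Cd200r3 and 3 of Ms4a2, all on the basophil list. An SCI barcode had 11 UMIs of Hdc, 10 of Mcpt8 and 7 of Cpa3 from that list. A second sham barcode held 7 UMIs of Il7r, 4 each of Ncr1, Nkg7 and Trbc1 and 3 of Cd3d. The other sham barcode had 8 UMIs of Sox4, 4 each of Kit and Gata2, 2 of Cd34 and 10 of Car2. The other SCI barcode had 12 UMIs of Stmn1, 8 of Nkg7, 7 of Myb and 6 of Sox4.

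Members made up 0.172% of naïve barcodes (95% interval 0.0942 to 0.289), 3.3% of sham (2.90 to 3.75) and 1.41% of SCI barcodes (1.16 to 1.70). These intervals did not overlap. They depend on how many mouse cells passed the sort in each library, which was not measured, so that fewer mouse cells in blood and fewer leaking through the gate cannot be told apart.

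The mix of classes was close in sham and SCI blood for 3 of the 4 classes. Non-classical monocyte-like barcodes were 7 of 14 in naïve, 100 of 230 (43.5%, 37.0 to 50.2) in sham and 43 of 106 (40.6%, 31.1 to 50.5) in SCI blood. Classical ones were 1 of 14, 59 of 230 (25.7%, 20.1 to 31.8) and 22 of 106 (20.8%, 13.5 to 29.7). Neutrophil-like ones were 2 of 14, 56 of 230 (24.3%, 18.9 to 30.4) and 25 of 106 (23.6%, 15.9 to 32.8). Platelet-like barcodes were 4 of 14 (28.6%, 8.39 to 58.1) in naïve, 12 of 230 (5.22%, 2.72 to 8.94) in sham and 14 of 106 (13.2%, 7.41 to 21.2) in SCI blood. The sham and SCI intervals overlapped in each class, for the platelet-like class only at their ends. With at least 500 mouse genes required, the platelet-like share was 0.909% in sham and 7.37% in SCI blood.

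**Figure D3:**
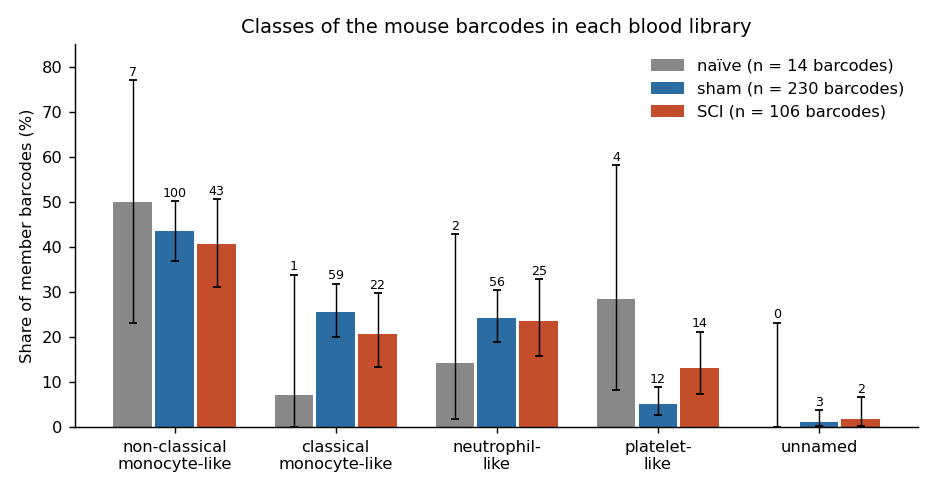
Share of the members of each blood library in each class, as percent, with exact 95% binomial intervals and the number of barcodes above each bar. Sham (230 barcodes) and SCI (106) have similar shares except for platelet-like barcodes, at 5.22% and 13.2%, and the naïve library rests on 14 barcodes.

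Across all members, SCI and sham blood differed most in platelet genes. Of 7242 genes compared (those with a sum of 20 or more counts in the pair of libraries), 250 were at least 2-fold higher in SCI (3.45% of those compared) and 269 at least 2-fold lower (3.71%), and 361 of these 519 stayed past 2-fold after the barcode with most UMIs of the gene was left out. The median log2 ratio of all genes was -0.06. At each library's own depth the split was 144 higher and 755 lower, and with the mean of CPM per barcode it was 307 and 548. Of the platelet adhesion and granule list, 16 of 18 genes compared were at least 2-fold higher in SCI and none lower, with a median log2 ratio of 2.24. Pf4 stood at 3055 CPM in SCI and 754 CPM in sham members, a log2 ratio of 2.02 (1.89 to 2.15), and Itga2b at 423 and 86.7 CPM (2.28, 1.92 to 2.67). The platelet-like barcodes were 14 of 106 and 12 of 230 of the members. Within that class alone, the same list had 1 of 15 genes at least 2-fold higher, none lower and a median of 0.14.

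The highest single genes in SCI against sham members came from single barcodes. Retnla, which encodes a resistin-like protein of alternatively activated macrophages, had 547 UMIs in SCI members and 0 in sham, and all 547 lay in 1 barcode. Cd209a had 64 UMIs, all in another barcode. The lubricin gene Prg4 had 63 in yet another. C1qa had 98 in 1 SCI barcode and 2 UMIs in sham. Cxcl10, an interferon-induced chemokine, had 88 UMIs of which 87 lay in 1 barcode. Without the barcode holding most UMIs, the log2 ratios of Prg4, C1qa and Cxcl10 were -0.10, -0.83 and -1.01.

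These barcodes each had a gene set of their own, chosen after its values were seen. The Retnla barcode also held 169 of the 208 UMIs of Lyz1 over all members. The Cd209a barcode, with 69.3% of its UMIs on mouse genes and 10 Xist UMIs, held 210 of 774 UMIs of H2-Ab1, 250 of 608 of H2-Eb1 and 242 of 882 of H2-Aa. The Prg4 barcode had 43 of 43 UMIs of Alox15, 8 of Timd4 and 3 of Gata6, genes known from peritoneal macrophages. The C1qa barcode, at 91.8% mouse UMIs, held 253 of 1190 UMIs of Apoe and 13 of 35 of the mannose receptor gene Mrc1. The Cxcl10 barcode had 34 UMIs of Ifit3, 27 of Ifit1 and 24 of Rsad2. The first 4 were classical monocyte-like by cluster, the last neutrophil-like. None of those 4 held a Ly6c2 UMI, and the C1qa and Prg4 barcodes held no Ccr2 UMI. A sham barcode of the classical class held 41 of 49 UMIs of Ccr7 and 43 of 86 of Fscn1, both known from migratory dendritic cells. It held no Lyz2, Csf1r or Ccr2 UMI. All these barcodes stayed in the comparisons of their class below.

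**Figure D4:**
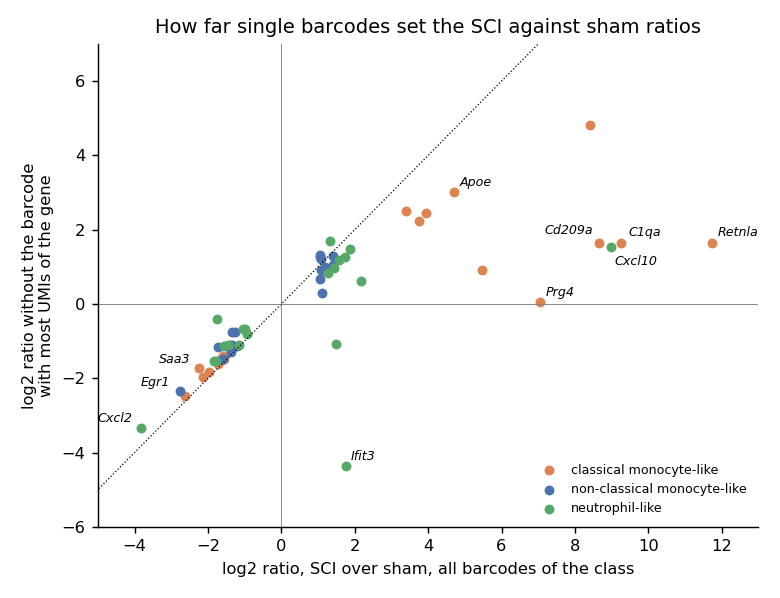
Log2 ratio of SCI over sham for the 10 highest and 10 lowest genes of 3 classes, with all barcodes of the class (x axis) and without the barcode that held most UMIs of the gene (y axis), with the dotted line marking equal values. Retnla, C1qa, Cd209a and Cxcl10 had 0 UMIs left in both libraries without that barcode, so that their y values come from the 0.5 counts added, while most of the lower genes stay near the line.

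The lowest genes in SCI against sham were spread over more barcodes. Saa3, an acute-phase serum amyloid gene, had 9 UMIs in 5 of 106 SCI members and 141 in 17 of 230 sham members, a log2 ratio of -2.41 (-3.64 to -1.51) that was -0.89 among Y-linked barcodes of both libraries. Ly6c1 had 11 UMIs in 5 SCI and 112 in 41 sham members (-1.80, -2.90 to -0.96). Ly6c2 had 20 UMIs in 5 SCI and 185 in 51 sham members (-1.69, -2.46 to -1.05). The nuclear receptor gene Rxra had 8 and 68 UMIs (-1.52, -2.87 to -0.54). Saa3, Ly6c1 and Ly6c2 were almost confined to the classical class, which held 150 of 150, 122 of 123 and 207 of 212 of their UMIs over the 3 libraries. Lyz2 and Csf1r differed little, with log2 ratios of -0.09 (-0.12 to -0.05) and -0.11 (-0.33 to 0.10). Of the other lists, MHC class II presentation had 4 of 8 genes at least 2-fold higher and a median of 0.88, which was -0.07 without the top barcode of each gene. The type I interferon list had 5 of 33 higher with a median of -0.06.

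In the classical monocyte-like class, compared although it held fewer than the 30 barcodes per library first required, Ly6C transcripts were fewer in SCI. Of 5296 genes compared, 213 were at least 2-fold higher (4.02%) and 250 at least 2-fold lower (4.72%). Ly6c2 was detected in 46 of 59 sham barcodes, with up to 19 UMIs and a median of 2, and in 5 of 22 SCI barcodes, with a median of 0 and 15 of the 20 UMIs in 1 barcode. The log2 ratio was -1.49 (-2.27 to -0.86). The 2 groups overlapped, since 13 sham barcodes held no Ly6c2 UMI and 1 SCI barcode held 15. After each barcode was thinned to 5000 mouse UMIs, which kept all 81, a Ly6c2 UMI was found in 39 of 59 sham (66.1%, 52.6 to 77.9) and 2 of 22 SCI barcodes (9.09%, 1.12 to 29.2). Human barcodes had a Ly6c2 UMI in 0.0201% of sham and 0.0159% of SCI blood. Ly6c1 was found in 40 of 59 and 5 of 22 barcodes (log2 ratio -1.63, -2.73 to -0.80).

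Host sex moved with this comparison, since sham hosts were male. Among SCI barcodes of the class, Ly6c2 was detected in 2 of 11 with a Y-linked UMI, 2 of 9 with an Xist UMI and 1 of 2 with neither. With Y-linked barcodes alone in both libraries, its log2 ratio was -2.79.

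By CPM, other markers of the class differed in both directions. Vcan was found in 48 of 59 sham and 11 of 22 SCI barcodes, at 1109 and 514 CPM (log2 ratio -1.10, -1.44 to -0.79, and -0.61 with Y-linked barcodes). Of genes that are not markers of the class, Nr4a1 stood at 226 and 84.8 CPM (-1.37, -2.29 to -0.64), and Trem3, a receptor of myeloid cells, at 210 and 45.2 CPM (-2.13, -3.46 to -1.19). With Y-linked barcodes alone, the log2 ratio of Trem3 was -1.88 in the class as it stood and -0.32 after those barcodes were clustered anew. The first value rests on 11 SCI barcodes. The second rests on fewer, since the new class held only 12.1% of the SCI members with a Y-linked UMI. Ifi27l2a, an interferon-induced gene, was found in 58 of 59 sham barcodes with a median of 39 UMIs and in 21 of 22 SCI barcodes with a median of 14 (-0.72, -0.87 to -0.58). Ccr2 and F13a1 were within 2-fold, at -0.39 (-0.62 to -0.18) and -0.43 (-0.67 to -0.21). Chil3 was at 3702 CPM in SCI and 2389 CPM in sham (0.63, 0.49 to 0.77), and Fn1 at 2142 and 1751 CPM (0.29, 0.12 to 0.46). Yet Chil3 was found in a smaller share of SCI barcodes, 16 of 22 against 52 of 59, and 1 SCI barcode held 120 UMIs. The median of Fn1 was 8.5 UMIs in SCI and 13 in sham barcodes. The Retnla and Prg4 barcodes of SCI held 86 and 82 Fn1 UMIs. Lyz2 and Csf1r again differed little (-0.06 and -0.02).

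**Figure D5:**
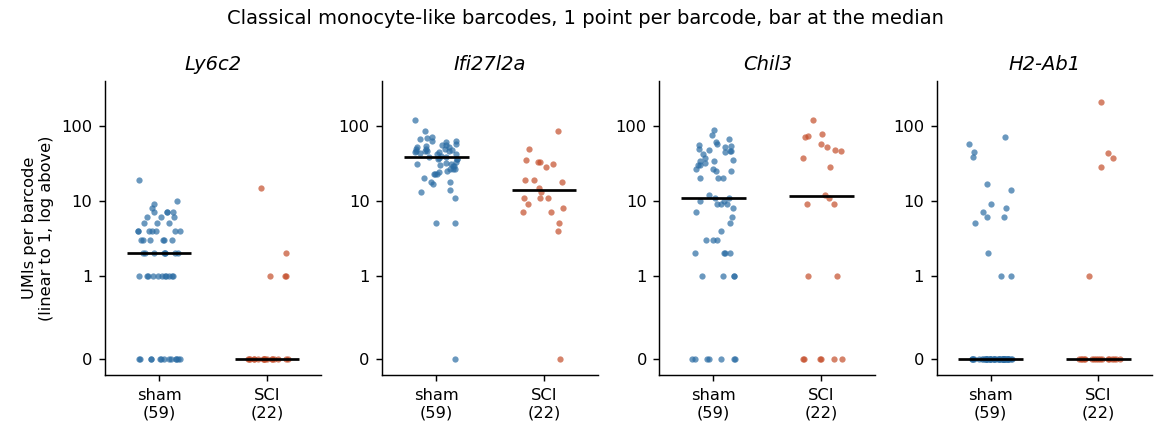
UMIs of 4 genes in each classical monocyte-like barcode of sham (59) and SCI (22) blood, on an axis that is linear to 1 and logarithmic above, with a bar at the median. Ly6c2 has a median of 2 in sham and 0 in SCI, Ifi27l2a of 39 and 14 and Chil3 of 11 and 11.5, whereas H2-Ab1 is at 0 in most barcodes and reaches 210 in 1 SCI barcode.

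Several genes were higher in SCI classical monocyte-like barcodes. Fkbp5, a glucocorticoid-induced co-chaperone gene, was found in 13 of 22 SCI and 16 of 59 sham barcodes (130 and 38.0 CPM, log2 ratio 1.77, 0.86 to 2.70). It was the 1 gene of 11 compared on the glucocorticoid list that was at least 2-fold higher, and the list median was 0.16 against -0.02 over all genes. Tsc22d3 of the same list was at 0.51 (0.08 to 0.91). Mrc1 was found in 5 of 22 and 1 of 59 barcodes, and its log2 ratio stayed at 4.12 without the top barcode. However, the C1qa, Cd209a and Retnla barcodes described above held 13, 5 and 4 of its 32 SCI UMIs. Pf4 was found in 11 of 22 and 12 of 59 barcodes, with 66 and 31 UMIs (2.72, 2.1 to 3.4), and Ppbp in 5 of 22 and 4 of 59. The 14 platelet markers together made up 592 CPM of all mouse UMIs in SCI and 107 in sham barcodes of the class, and their part in the result was not tested. The chemokine genes Ccl6 (1.30, 1.07 to 1.52) and Ccl9 (0.90, 0.65 to 1.14) were also higher, in 19 and 20 of 22 SCI and 55 and 57 of 59 sham barcodes. Single SCI barcodes held 98 of the 298 UMIs of Ccl6 and 34 of the 66 UMIs of Pf4, and without them the log2 ratios were 0.72 and 1.69.

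MHC class II genes, which present antigen, were uneven within the class. H2-Ab1 was found in 5 of 22 SCI and 15 of 59 sham barcodes, so that its log2 ratio of 1.79 (1.56 to 2.03) rested on 1 barcode with 210 of 320 SCI UMIs. It was 0.25 without that barcode, -0.90 when barcodes under 90% mouse UMIs were left out and -0.67 with Y-linked barcodes. The list had 5 of 8 genes at least 2-fold higher and a median of 1.33, which was 0.26 without each gene's top barcode and -0.55 when barcodes under 90% mouse UMIs were left out. At a finer clustering, the class split into 59 and 23 barcodes. In the smaller group, H2-Ab1 was found in 12 of 15 sham and 5 of 8 SCI barcodes, and in the larger one in 3 of 44 and 0 of 14. The smaller group made up 25.4% of the sham and 36.4% of the SCI barcodes of the class. Ly6c2 was found in 42 of 44 sham and 5 of 14 SCI barcodes of the larger group. In the smaller one it was found in 4 of 15 and 0 of 8. Detection was thus lower in SCI in both groups, though the smaller group held few barcodes.

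In the non-classical monocyte-like class (43 SCI, 100 sham barcodes), 96 of 4751 genes were at least 2-fold higher in SCI (2.02%) and 217 at least 2-fold lower (4.57%). Most markers of the class were within 2-fold, with log2 ratios of 0.24 (-0.07 to 0.54) for Ace, -0.12 (-0.44 to 0.18) for Treml4, 0.12 (-0.21 to 0.42) for Nr4a1 and -0.16 (-0.49 to 0.15) for Cd300e. Cx3cr1 had an interval below 0, found in 24 of 43 SCI and 82 of 100 sham barcodes at 368 and 666 CPM (-0.85, -1.30 to -0.44). Lyz2 stood at 18939 CPM in SCI and 16151 CPM in sham, which is a log2 ratio of 0.23 (0.17 to 0.29).

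The genes lowest in SCI non-classical barcodes included the immediate early gene Egr1, with 2 UMIs in 2 of 43 SCI and 49 in 15 of 100 sham barcodes (-2.75, -6.14 to -1.13). Of the other 11 immediate early genes compared, none was past 2-fold. Of 9 genes of iron and haem handling compared, 1 was at least 2-fold higher, 2 lower and 6 neither, with a median of -0.03. The higher one was Slc48a1, a haem transporter gene, with 11 UMIs in each library (1.56, 0.21 to 2.90). Hmox1, haem oxygenase, was found in 14 of 43 and 42 of 100 barcodes (-1.39, -2.28 to -0.68). After thinning to 2000 mouse UMIs, which left out 1 SCI and 4 sham barcodes, it was found in 10 of 42 (23.8%, 12.1 to 39.4) and 16 of 96 (16.7%, 9.84 to 25.7), so that the lower detection did not hold at matched depth. Spic, the transcription factor of iron-recycling macrophages, had 2 and 28 UMIs (-1.96, -5.37 to -0.26). H2-Ab1 was found in only 3 of 43 and 7 of 100 barcodes (-1.72, -2.64 to -1.0). Pf4 had 0 UMIs in SCI and 21 in 8 of 100 sham barcodes. Cmah, found in 10 of 43 and 49 of 100 barcodes, and Sh3kbp1, in 10 of 43 and 59 of 100, had log2 ratios of -1.37 (-2.48 to -0.52) and -1.36 (-2.42 to -0.54), which were -0.97 and -1.33 with Y-linked barcodes.

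The genes highest in SCI non-classical barcodes differed by less. Tppp3 was found in 16 of 43 SCI and 28 of 100 sham barcodes (1.42, 0.75 to 2.07), Unc119 in 30 and 37 (1.40, 0.83 to 1.96) and the transcription factor gene Hhex in 18 and 32 (1.18, 0.47 to 1.86). With Y-linked barcodes their log2 ratios were 0.69, 1.20 and 1.6, and Hhex was at 0.995 without its top barcode. Chil3 had a log2 ratio of 1.10 (0.71 to 1.48), which was 0.28 without 1 SCI barcode that held 43 of the 99 UMIs. Fkbp5 was found in 14 of 43 and 19 of 100 barcodes (1.13, 0.21 to 2.01), yet among Y-linked barcodes its log2 ratio was -0.34. Klf9 was at 1.22 (-0.08 to 2.45), or 0.087 among Y-linked barcodes, and Tsc22d3 at 0.77 (0.36 to 1.16). The glucocorticoid list had 2 of 9 genes at least 2-fold higher and a median of 0.63, against 0.01 over all genes of the class. Fabp5, a fatty acid-binding protein gene, was lower, in 6 of 43 and 26 of 100 barcodes (-1.36, -2.61 to -0.42), and was at -0.86 with Y-linked barcodes.

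Neutrophil-like barcodes (25 SCI, 56 sham) gave 897 genes to compare, of which 44 were at least 2-fold higher in SCI (4.91%) and 58 at least 2-fold lower (6.47%), or 32 and 90 with TMM factors, which moved the median of all genes from 0.02 to -0.18. Among the SCI barcodes, 2 of 25 had a Y-linked UMI and none an Xist UMI, so that host sex was undetermined for the rest. Their receptors and Il1b were level, with log2 ratios of -0.03 (-0.47 to 0.37) for Cxcr2, -0.08 (-0.48 to 0.29) for Csf3r and -0.003 (-0.21 to 0.19) for Il1b. The chemokine gene Cxcl2 had 1 UMI in SCI and 61 in 13 of 56 sham barcodes (-3.83, -9.73 to -1.87). Sgk1, a glucocorticoid-induced kinase gene, was in 0 of 25 SCI and 16 of 56 sham barcodes, and the retention receptor gene Cxcr4 in 2 and 15 (-1.93, -5.34 to -0.23). Ifi27l2a was found in 9 of 25 and 36 of 56 barcodes (-1.79, -2.42 to -1.25). That ratio was -0.43 when S100a8 and S100a9 were held under 0.5% and -0.083 when Y-linked barcodes alone were clustered, where the class held 30 barcodes over the 3 libraries. With the Y-linked barcodes of the class as it stood, Cxcl2 was at -0.47 and Cxcr4 at -0.31. These 2 values rest on 2 SCI barcodes, in which 6 UMIs of Ifi27l2a stood at 2953 CPM. They are near the floor, and the 0.5 counts added weigh heavily on them. Of the type I interferon list, 8 of 17 genes were at least 2-fold higher and 1 lower, with a median of 0.23 that was -0.22 without the top barcode of each gene, and the single Cxcl10 barcode held most of these UMIs. Higher over many barcodes were Jund, in 25 of 25 SCI and 41 of 56 sham barcodes (1.19, 0.72 to 1.64), and Wfdc17, in 14 of 25 and 11 of 56 (1.86, 1.22 to 2.52).

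Platelet-like barcodes (14 SCI, 12 sham) gave 256 genes, of which 14 were at least 2-fold higher in SCI (5.47%) and 14 at least 2-fold lower (5.47%), or 22 and 6 with TMM factors. Pf4 was at 39397 CPM in SCI and 46391 CPM in sham (log2 ratio -0.24, -0.37 to -0.10), and Ppbp at 19968 and 22743 CPM (-0.19, -0.38 to 0.01). Gp9 (0.26, -0.16 to 0.70) and Itga2b (0.11, -0.28 to 0.53) were also within 2-fold. Smim3 was the highest of the named genes, with 47 and 8 UMIs (1.64, 0.62 to 3.00), and 1.18 without its top barcode.

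The naïve members, 14 barcodes with 27251 counts after the gene filters, allowed comparisons of large differences only, and both comparisons share this library. Of 6555 genes, 941 were at least 2-fold higher in sham (14.4%) and 1214 lower (18.5%). Of 3751 genes, 625 were at least 2-fold higher in SCI (16.7%) and 460 lower (12.3%). Among the higher genes, 704 and 409 were at 0 counts in naïve. TMM factors in place of totals, which moved the median of all genes from 0.01 to 0.31 and from -0.03 to 0.35, changed these splits to 1455 higher and 791 lower for sham and 906 and 225 for SCI. At each library's own depth they were 3995 and 141, and 1669 and 62.

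Chil3 had 0 UMIs in naïve, 1459 in 80 of 230 sham and 754 in 31 of 106 SCI members, which is at least 12-fold higher in sham and at least 17.4-fold higher in SCI when naïve is set at 3 counts. Vcan had 0 and 618 UMIs in naïve and sham, at least 5.07-fold higher. Both are genes of the classical class, which was 1 of 14 naïve members. Pim1, a kinase gene, was found in 146 of 230 sham, 64 of 106 SCI and 0 of 14 naïve members, at least 3.72-fold and 3.04-fold higher. The lowest genes in sham and in SCI against naïve were mostly platelet genes. Itgb3 had 32 UMIs in 4 naïve members, 27 of them in 1, and its log2 ratio was -4.83 (-5.50 to -4.12) for sham and -3.50 (-4.20 to -2.78) for SCI, or -2.26 and -0.94 without its top barcode. Of the platelet list, 14 of 15 genes were at least 2-fold lower in sham and 15 of 15 in SCI, with medians of -4.07 and -1.91. Platelet-like barcodes were 4 of the 14 naïve members.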

How the data were processed

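Sorted blood cells of 3 conditions were measured by 10x 3' scRNAseq, with 1 library each. Per the labels, the authors aligned reads with Cell Ranger 3.1.0 to a combined GRCh38 and mm10 reference (33538 human and 31053 mouse genes) and deposited UMI counts per gene and barcode without normalisation. They removed mouse cells from their own analysis. Libraries held 34161760, 36007208 and 36487994 UMIs for naïve, sham and SCI.

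Members and gene lists were chosen with earlier results of these data known. Members were clustered with scanpy 1.11.5 (2000 variable genes, scaled within library, 20 components, 15 neighbours, Leiden at resolution 0.8). Marker lists were written first, but the naming rule was settled after the clusters were seen. A class named a cluster of at least 10 barcodes if 3 or more of its markers reached 10% of barcodes and a level 2-fold above other members, the class with most such markers taking the name. No doublet caller was run, and the share of mouse UMIs stood in for doublets with human cells.

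Counts were summed per library and class and scaled to CPM without ribosomal, mitochondrial, haemoglobin, S100a8, S100a9 and sex-linked genes. For log2 ratios, 0.5 was added to each count, and a gene needed 20 or more counts in the pair of libraries. Named genes were list and marker genes and, per comparison, the 10 highest and 10 lowest ratios among genes with at least 50 counts and 50 CPM in 1 library. Intervals were exact at 95% (Clopper-Pearson for shares, conditional binomial for ratios, scipy 1.17.1). A count of 0 was set at 3 counts for folds. Calculations were tested on simulated counts. Classes under 30 barcodes in a library were compared as an addition made after seeing the data. Alternatives included TMM factors (edgeR 4.0.16), thinning to 500 UMIs, host sex and leaving out single barcodes. Python 3.11.15, numpy 2.4.6, pandas 2.3.3 and matplotlib 3.10.9 were used. Gene positions came from GENCODE on GRCm38. The SCI cord library was used only for the side-by-side values.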

Additional observations from a re-analysis of the deposited data

Results flagged for a closer look

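MHC class II genes and Pf4 went in opposite directions in the 2 monocyte-like classes, SCI over sham, and the differences between the classes were not tested. H2-Ab1 had a log2 ratio of 1.79 in the classical and -1.72 in the non-classical class, and H2-Eb1 of 2.84 and -1.34. They were found in 5 and 4 of 22 classical and in 3 and 2 of 43 non-classical SCI barcodes, so that few barcodes carry both directions. With barcodes under 90% mouse UMIs left out, the classical ratios were -0.90 and -0.72. Without its top barcode, H2-Eb1 was at -0.75 in the non-classical class. Pf4 had a log2 ratio of 2.72 in the classical class (66 against 31 UMIs) and of -3.87 in the non-classical class (0 against 21 UMIs, a value set by the 0.5 counts added).

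Transcripts of the human cytokine genes that the host transgene carries lay outside the comparisons of mouse genes. The engrafted human cells have these genes too, with a CSF2 UMI in 20 sham and 18 SCI human barcodes. Members also held other human UMIs, such as 63 of PTPRC in sham. Whether the UMIs below came from the transgene was not tested. CSF2 had 20 UMIs in 17 of 230 sham members, 14.0 CPM (counts scaled to a total of 1000000) of all their UMIs against 0.767 in the human barcodes of that library. In SCI it had 6 UMIs in 4 of 106 members, 11.6 CPM against 0.628. IL3 had 4 UMIs in 2 sham members and 0 in SCI. No IL3, CSF2 or KITLG UMI was found in the 14 naïve members, where 1539 human UMIs were counted in all.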

How the results depend on the processing

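No paired analysis was possible because each condition has 1 library. Of the shares and counts of genes past 2-fold, 141 alternative values stayed close and 39 moved, and the causes were not tested beyond what each alternative does by construction. Among named genes, 1203 alternative values stayed close, 82 moved and 14 reversed. Among list medians the counts were 430, 3 and 2.

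With S100a8 and S100a9 under 0.5%, members were 2.53% of sham and 1.13% of SCI barcodes, and the neutrophil-like share became 0, 8.52% and 9.41% in naïve, sham and SCI. With at least 500 mouse genes, no naïve barcode was named non-classical, and the platelet-like share was 0.909% in sham and 7.37% in SCI. With Y-linked barcodes alone, reclustered, the SCI shares were 51.5% non-classical, 12.1% classical, 15.2% neutrophil-like and 21.2% platelet-like, the sham shares 17.8% neutrophil-like and 11.9% platelet-like, and the naïve platelet-like share 0. Of the 30 platelet-like barcodes of the main clustering, only 1 had a Y-linked UMI, yet 23 barcodes were named platelet-like here. The name thus fell mostly on barcodes of other classes, and these platelet-like shares cannot be set beside the main ones. At resolution 1.5, the non-classical share was 32.6% in sham, and the classical share 19.1% in sham and 13.2% in SCI. With 88 named genes left out of the clustering (chosen after seeing the data), 297 of 350 barcodes kept their class, and the sham shares were 34.3% non-classical and 35.7% classical and the SCI classical share 31.1%. Without neutrophil-like members, also added later, the non-classical share was 57.5% in sham and 53.1% in SCI, and the classical share 33.9% in sham.

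Genes past 2-fold, given first for sham over naïve, then SCI over naïve, then SCI over sham, numbered 2155, 1085 and 519. They were 6485, 5669 and 2686 with no filter, 491, 118 and 53 with at least 100 counts, 397, 113 and 134 after thinning to 500 UMIs, and 4136, 1731 and 899 at each library's own depth. SCI against naïve gave 370 with Y-linked barcodes. SCI against sham gave 855 with the mean of per-barcode CPM and 847 with equal class weights. Own depth moved the median of all genes to 1.32, 0.91 and -0.44 and left 3995 higher and 141 lower, 1669 and 62, and 144 and 755. Mean CPM split SCI against sham 307 to 548. TMM split the neutrophil-like genes 32 to 90 and the platelet-like genes 22 to 6, in place of 44 to 58 and 14 to 14.

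Without the barcode with most UMIs (added later), Retnla in SCI against naïve was counted as reversed (-3.86). No Retnla UMI was left in either library, so that this value comes only from the 0.5 counts added. Log2 ratios also reversed for Prg4, C1qa and Cxcl10 in SCI against sham (-0.10, -0.83 and -1.01). Of these, Prg4 and C1qa had no SCI UMI left, so that their values rest on the 0.5 counts added. Further reversals were Ifit3 and Ifit1 in neutrophil-like barcodes (-4.35 and -1.08) and Gm42418 in platelet-like barcodes (0.52), the last also with S100 under 0.5% (0.15). With Y-linked barcodes, reclustered, Ifitm1 (-1.86), Saa3 (0.14) and Ear1 (0.84) reversed in the classical class, and Retnlg (-4.51), Lyz2 (0.49) and Psap (0.076) in the neutrophil-like class. Those new classes held 37 and 30 barcodes over the 3 libraries, and 12.1% and 15.2% of the SCI members with a Y-linked UMI. Few SCI barcodes therefore carry these values, and the barcodes of each class changed as well. The classical MHC class II median reversed at 90% mouse UMIs (-0.55) and with Y-linked barcodes (-0.029).

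Depth limits the naïve members most, with 27251 counts.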
